A study of Mus musculus with 24 samples.

Results

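The 10 genes described here encode chemokines, the small secreted proteins that direct the movement of leukocytes, and were taken by symbol from the 55487 genes listed for 24 bulk RNA libraries of mouse C2C12 myotubes. They are Cxcl1, Cxcl2, Cxcl5, Cxcl10, Cxcl12, Cx3cl1, Ccl2, Ccl7, Ccl8 and Ccl20. C2C12 is an established myoblast line whose cells fuse into multinucleated, contractile myotubes when serum is withdrawn. All 4 groups were wild type (WT), were differentiated under 5 % O2, were taken at day 5 and were kept for 2 h at their final oxygen level. The 6 libraries of 5 % CTRL came from unstimulated myotubes under 5 % O2 and the 6 of 1 % CTRL from unstimulated myotubes under 1 % O2. Those of 5 % STIM and 1 % STIM, 6 each, came from myotubes that were in addition stimulated electrically in repeated short bouts at the same oxygen level and harvested straight afterwards. The comparisons address whether low oxygen changes the transcript response of myotubes to contraction-like stimulation. The line lacks the leukocytes, vessels and nerves of muscle. The study's methods call the 6 libraries of a group biological replicates, and the p-values measure the spread between these libraries.

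Chemokines are named for the spacing of their first cysteines. CXC chemokines that carry the residues glutamate, leucine and arginine just before the first cysteine (ELR) attract mainly neutrophils through Cxcr2, whereas CXC chemokines without them, such as Cxcl10 and Cxcl12, act on lymphocytes and progenitor cells through Cxcr3 and Cxcr4. CC chemokines such as Ccl2 and Ccl7 attract monocytes through Ccr2, Ccl20 attracts cells that carry Ccr6, and Cx3cl1 (fractalkine) is made as a membrane-bound protein that is shed and binds Cx3cr1. In injured muscle, neutrophils and then monocytes enter the tissue along such signals, and muscle cells are among their sources.

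The coding sequence around the first cysteines shows which family each gene belongs to. The stretches below are shown because the order of results follows these families. They come from exon 2 of each gene in the GRCm38 annotation, are written 5′ to 3′ on the coding strand, and carry in capitals the codons of the first 2 cysteines and, where present, of the ELR residues before them. Their positions are chr5:90891484-90891510 (Cxcl1, plus strand), chr5:90904130-90904156 (Cxcl2, plus), chr5:90759715-90759741 (Cxcl5, plus), chr5:92348175-92348201 (Cxcl10, minus), chr6:117171496-117171522 (Cxcl12, plus), chr8:94778039-94778071 (Cx3cl1, plus), chr11:82036494-82036517 (Ccl2, plus), chr11:82046526-82046549 (Ccl7, plus), chr11:82116044-82116067 (Ccl8, plus) and chr1:83117801-83117824 (Ccl20, plus).
Cxcl1: aatGAGCTGCGCTGTcagTGCctgcag
Cxcl2: agtGAACTGCGCTGTcaaTGCctgaag
Cxcl5: acgGAGCTGCGTTGTgttTGCttaacc
Cxcl10: aggacggtccgcTGCaacTGCatccat
Cxcl12: ctgagctaccgaTGCcccTGCcggttc
Cx3cl1: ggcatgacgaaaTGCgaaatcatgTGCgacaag
Ccl2: gccccactcaccTGCTGCtactca
Ccl7: aatgcatccacaTGCTGCtatgtc
Ccl8: gctccagtcaccTGCTGCtttcat
Ccl20: agcaactacgacTGTTGCctctcg
Only Cxcl1, Cxcl2 and Cxcl5 of the 10 carried the ELR codons.

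RefSeq promoter windows (GRCm38.p6, 250 bases before to 50 after the start site) were at hand for 7 of the 10 genes, which excludes Cxcl5, Ccl2 and Ccl7. Many chemokine promoters are textbook targets of NF-κB, so the windows were searched on both strands for a form of the NF-κB motif, spelled GGG, any 3 bases and TTCC. It occurred in 4 of the 7 windows, those of Cxcl1, Cxcl2, Cxcl10 and Ccl20, and not in those of Cxcl12, Cx3cl1 and Ccl8, and 5.56 % of the 32851 windows of this length in the table held it. The stretches that hold the matches are shown with 10 bases on each side and the matches in capitals, so that the matched letters can be read. They lie at chr5:90891146-90891194 (Cxcl1, plus strand), chr5:90903792-90903840 (Cxcl2, plus), chr5:92348974-92349058 (Cxcl10, minus) and chr1:83116676-83116705 (Ccl20, plus).
Cxcl1: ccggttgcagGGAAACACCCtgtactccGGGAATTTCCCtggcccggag
Cxcl2: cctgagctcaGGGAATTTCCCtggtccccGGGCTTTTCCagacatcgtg
Cxcl10: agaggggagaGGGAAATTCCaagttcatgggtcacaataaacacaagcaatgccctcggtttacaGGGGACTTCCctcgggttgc
Ccl20: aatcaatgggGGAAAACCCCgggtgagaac
The run GGGAATTTCCC, which matches on both strands with overlap, was found in Cxcl1 from base -71 and in Cxcl2 from base -97, counted from the start site. Of the other motifs searched, Cxcl1 held the hypoxia response core ACGTG from base -196 (19.6 % of windows hold it), and Cxcl10 held an AP-1 motif, TGANTCA, from base -74 (7.81 %) and an interferon response motif, GAAA, any 2 bases and GAAA, from base -213 (3.44 %). The cyclic AMP motif TGACGTCA (1.79 %) was in none of the 7. A match is a run of letters and not a measured binding site, and a link between matches and expression was not tested.

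Libraries held 26541858 to 28173745 reads assigned to genes, and values are counts divided by the library's size factor (normalized counts). The 14541 genes that reached a normalized count of 10 in 6 or more of the 24 libraries were compared by limma on log2(normalized count + 1), which understates the change of genes with few reads. All fold changes on the log2 scale below are on that scale, and adjusted p-values are Benjamini-Hochberg values over the genes tested. Of the 10 chemokines 9 were tested and Ccl8 was not, and Cxcl2, Cxcl10 and Ccl20 passed the minimum through 5 % STIM alone, so that they had to differ between groups. All 10 myotube markers were tested. Their summed normalized count lay between 558740 and 608120 in 5 % CTRL and between 516915 and 556003 in 1 % CTRL, without overlap, and between 502113 and 573218 in 5 % STIM and 503813 and 558663 in 1 % STIM. Of the 8 leukocyte markers 3 were tested, with a sum of all 8 between 61.9 and 115, and the defining markers Ptprc and Adgre1 had at most 1 read in any group. None of the 4 endothelial markers was tested, and their sum lay between 6.72 and 25.7. The sum of 7 markers of undifferentiated myoblasts reached 5713 in 1 % CTRL replicate 1, above the 3702 to 4724 of the other 1 % CTRL libraries. This library was kept, and results that depend on it are given with and without it. In bulk RNA, fewer cells of a type and less RNA per cell cannot be told apart.

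Stimulation under 5 % O2 raised Cxcl1, Cxcl2, Cxcl5, Cxcl10, Ccl2, Ccl7, Ccl20 and, slightly, Cx3cl1, and it lowered Cxcl12. Cxcl1 rose 451-fold in mean normalized count, Cxcl5 146-fold, Ccl2 94.1-fold and Ccl7 25.7-fold, while the abundant Cxcl12 and Cx3cl1 moved by 0.20 or less on the log2 scale. Across the tested genes 9.44 % were called higher and 21.4 % in either direction in this comparison. The number of chemokines called is not read against that share, since Cxcl2, Cxcl10 and Ccl20 entered the test through 5 % STIM alone and Cxcl1 and Cxcl5 mainly through the stimulated groups. The median log2 difference was -0.01 over the genes tested. Under 1 % O2 the same stimulation raised Cxcl1, Cxcl5, Cxcl10, Ccl2 and Ccl7, and lowered Cxcl12, where 11.5 % of tested genes were called higher and 22.3 % in either direction. The response was smaller under 1 % O2 for Cxcl1, Cxcl5, Ccl2 and Ccl7, and also for Cxcl2 and Ccl20, which entered the test through 5 % STIM alone, where 5.43 % of tested genes had a lower response at an adjusted p-value under 0.05 and 11.3 % a different one in either direction. The summed normalized count of the 10 without Cxcl12 and Cx3cl1 was 74.8 ± 11.2 (SD, n = 6) in 5 % CTRL and rose to 7246 ± 1491 in 5 % STIM. Under 1 % O2 it was 49.5 ± 6.16 without and 504 ± 85.7 with stimulation.

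**Figure D1:**
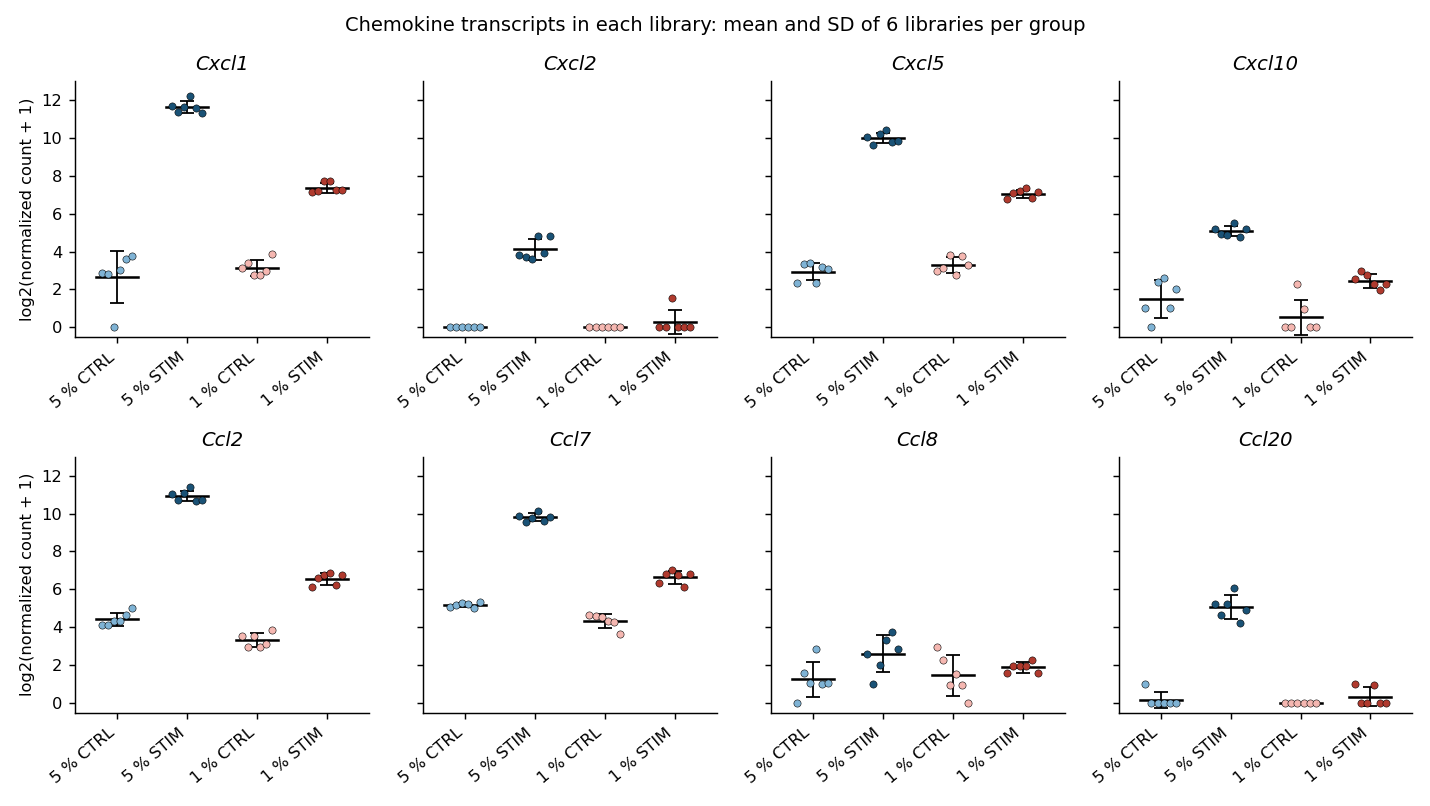
Normalized counts of 8 chemokines in each library, on the log2(normalized count + 1) scale, for the 4 groups on the x axis. Points are libraries, horizontal lines are group means of the log2 values and bars are SDs of 6 libraries. The 5 % STIM points of Cxcl1, Cxcl2, Cxcl5, Cxcl10, Ccl2, Ccl7 and Ccl20 lie above those of the other 3 groups, and those of Ccl8 overlap with them.

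Cxcl1 (ENSMUSG00000029380, chromosome 5 from 90891241 to 90893115), an ELR chemokine for neutrophils, had the largest log2 response of the 9 tested. Its normalized counts were 0, 6.69 and 12.6 (lowest, median and highest of 6 libraries) in 5 % CTRL and 5.71, 7.30 and 13.6 in 1 % CTRL. They were 2526, 3112 and 4673 in 5 % STIM and 138, 151 and 209 in 1 % STIM. Each stimulated library lay above each unstimulated one, the 5 % STIM and 1 % STIM libraries were separate from each other, and the unstimulated groups overlapped. The response was 8.95 on the log2 scale under 5 % O2 (SE 0.43, adjusted p = 7.13e-13 from limma) and 4.23 under 1 % O2 (SE 0.43, adjusted p = 1.32e-07 from limma), which is 20.4-fold in mean count. The 2 responses differed by -4.72 (SE 0.61, adjusted p = 1.73e-05 from limma). The mean gain of 159 normalized counts under 1 % O2 was 4.93 % of the gain of 3231 under 5 % O2. Between the unstimulated groups the difference was 0.47 (SE 0.43, adjusted p = 0.364 from limma), and without 5 % CTRL replicate 3, the library at 0, it was -0.07 (adjusted p = 0.799 from limma).

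Cxcl5 (ENSMUSG00000029371, chromosome 5 from 90759360 to 90761624), a further ELR chemokine, rose at both oxygen levels. It had 4.09, 7.69 and 9.43 normalized counts (lowest, median and highest) in 5 % CTRL and 5.75, 8.20 and 13.3 in 1 % CTRL. After stimulation it had 802, 985 and 1343 in 5 % STIM and 107, 137 and 160.1 in 1 % STIM. The stimulated groups overlapped neither with the unstimulated ones nor with each other. The response was 7.04 (SE 0.19, adjusted p = 4.59e-22 from limma) under 5 % O2 and 3.76 (SE 0.19, adjusted p = 6.91e-16 from limma) under 1 % O2, the latter 14.5-fold in mean count. They differed by -3.28 (SE 0.27, adjusted p = 3.50e-10 from limma), and the gain under 1 % O2 was 12.1 % of that under 5 % O2. A share of 0.623 % of the 75-base words of its exons also occurs in other genes.

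Cxcl2 (ENSMUSG00000058427, chromosome 5 from 90903871 to 90905938), the third ELR chemokine, had no read in the 12 unstimulated libraries. In 5 % STIM its normalized counts were 11.1, 13.8 and 27.6 (lowest, median and highest), and in 1 % STIM it had 2 reads in all, both in replicate 3. The 5 % STIM libraries were thus separate from the rest, and the 1 % STIM libraries were near 0 like the unstimulated ones. Cxcl2 entered the test through 5 % STIM alone, so the separation of 5 % STIM follows from the filter. Against a floor of 3 reads over the group, it was at least 34.1-fold higher in 5 % STIM than in 5 % CTRL (fitted log2 difference 4.12, SE 0.45, adjusted p = 7.79e-09 from limma). The ratio of 5 % STIM to 1 % STIM was 54.3, with a 95 % counting interval from 14.7 to 454 that covers counting error only. The response under 1 % O2 was 0.26 (SE 0.45, adjusted p = 0.754 from limma), on 2 reads against none. The responses differed by -3.86 (SE 0.63, adjusted p = 5.39e-05 from limma), a call not made by the quasi-likelihood test of edgeR on whole reads, in which both unstimulated groups are at 0 (adjusted p = 1.00). A share of 4.57 % of its 75-base exon words also occurs in its neighbour Cxcl3, and reads from there would not be assigned with certainty.

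Ccl2 (ENSMUSG00000035385, chromosome 11 from 82035571 to 82037453), the main chemokine for monocytes, was detected in each of the 24 libraries. Its normalized counts were 16.3, 19.1 and 31.4 (lowest, median and highest) in 5 % CTRL and 6.71, 9.08 and 13.6 in 1 % CTRL. Stimulated libraries held 1632, 1894 and 2680.2 in 5 % STIM and 69.2, 100.5 and 116 in 1 % STIM. None of the 4 groups overlapped with another, in the order 5 % STIM, 1 % STIM, 5 % CTRL and 1 % CTRL. The response was 6.50 (SE 0.17, adjusted p = 1.31e-21 from limma) under 5 % O2 and 3.22 (SE 0.17, adjusted p = 1.16e-14 from limma), or 10.1-fold, under 1 % O2. The difference between them was -3.28 (SE 0.25, adjusted p = 1.15e-10 from limma), and the gain under 1 % O2 was 4.33 % of that under 5 % O2. The gene Gm17268 overlaps Ccl2 on the other strand, and the counting is not stated to use strand, but none of the 75-base exon words of Ccl2 occurs in another gene.

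Ccl7 (ENSMUSG00000035373, chromosome 11 from 82045712 to 82047525), which shares the receptor Ccr2 with Ccl2, followed the same order of groups. It had 31.2, 35.2 and 38.7 normalized counts (lowest, median and highest) in 5 % CTRL and 11.6, 20.5 and 23.6 in 1 % CTRL. It reached 760.4, 893 and 1133 in 5 % STIM and 69.3, 107.7 and 131 in 1 % STIM. No group overlapped with another. The response was 4.63 (SE 0.14, adjusted p = 4.59e-22 from limma) under 5 % O2 and 2.31 (SE 0.14, adjusted p = 1.50e-14 from limma), or 5.17-fold, under 1 % O2. They differed by -2.32 (SE 0.20, adjusted p = 4.03e-10 from limma), and the gain under 1 % O2 was 9.46 % of that under 5 % O2.

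Ccl20 (ENSMUSG00000026166, chromosome 1 from 83116766 to 83119167), the ligand of Ccr6, had 1 read in the 6 libraries of 5 % CTRL and none in those of 1 % CTRL. In 5 % STIM its normalized counts were 17.4, 32.6 and 66.4 (lowest, median and highest), and 1 % STIM held 2 reads in all. Only the 5 % STIM libraries stood clear of the others. Ccl20 entered the test through 5 % STIM alone, so this separation follows from the filter. The response under 5 % O2 was 4.88 (SE 0.42, adjusted p = 4.38e-11 from limma), with a ratio of 204 and a counting interval from 36.2 to 8102 because of the single read in 5 % CTRL. Under 1 % O2 it was 0.32 (SE 0.42, adjusted p = 0.655 from limma). The ratio of 5 % STIM to 1 % STIM was 109, with a counting interval from 29.7 to 903. The responses differed by -4.55 (SE 0.59, adjusted p = 1.37e-06 from limma), a call not made by edgeR on whole reads, where 1 % CTRL is at 0 (adjusted p = 0.958).

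Cxcl10 (ENSMUSG00000034855, chromosome 5 from 92346638 to 92348889), an interferon-inducible CXC chemokine without ELR, rose at both oxygen levels. It had 0, 2.09 and 5.12 normalized counts (lowest, median and highest) in 5 % CTRL and 0, 0 and 3.81 in 1 % CTRL. The stimulated groups had 26.6, 32.6 and 44.0 in 5 % STIM and 2.89, 4.39 and 6.86 in 1 % STIM. The 5 % STIM libraries were separate from the rest, whereas 1 % STIM overlapped with both unstimulated groups. Cxcl10 entered the test through 5 % STIM alone, so the separation of 5 % STIM follows from the filter. The response was 3.57 (SE 0.42, adjusted p = 4.05e-08 from limma) under 5 % O2 and 1.93 (SE 0.42, adjusted p = 6.34e-04 from limma) under 1 % O2, and the responses differed by -1.64 (SE 0.59, adjusted p = 0.0682 from limma). That difference passed the threshold with a pseudocount of 10 (-1.36, adjusted p = 6.86e-06 from limma), without 5 % CTRL replicate 4 (-1.86, adjusted p = 0.0385) and without 1 % CTRL replicate 1 (-1.75, adjusted p = 0.0414). Art3 overlaps Cxcl10 on the other strand, and 2.47 % of the 75-base exon words of Cxcl10 occur there in antisense. The libraries were stranded but the counting is not stated to use strand, so some reads there may not be assigned with certainty.

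Ccl8 (ENSMUSG00000009185, chromosome 11 from 82115185 to 82116799), a CC chemokine of the same gene cluster as Ccl2 and Ccl7, stayed at a few reads per library. Its normalized counts were 0, 1.05 and 6.14 (lowest, median and highest) in 5 % CTRL and 0, 1.44 and 6.89 in 1 % CTRL. The stimulated groups had 1.01, 5.65 and 12.3 in 5 % STIM and 1.95, 2.87 and 3.85 in 1 % STIM. All 4 groups overlapped. The mean was 3.26-fold higher in 5 % STIM than in 5 % CTRL (two-sided exact permutation p = 0.0411, 0.165 after adjustment over the 4 comparisons of this gene). The smallest p that this test can give with 6 against 6 is 0.00216. In a fit without the filter, the difference was 1.34 on the log2 scale (SE 0.47, adjusted p = 0.0706 from limma). Between 1 % STIM and 1 % CTRL the exact permutation p was 0.387 (0.517 adjusted), so that a response of Ccl8 was not detectable at this depth.

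**Figure D2:**
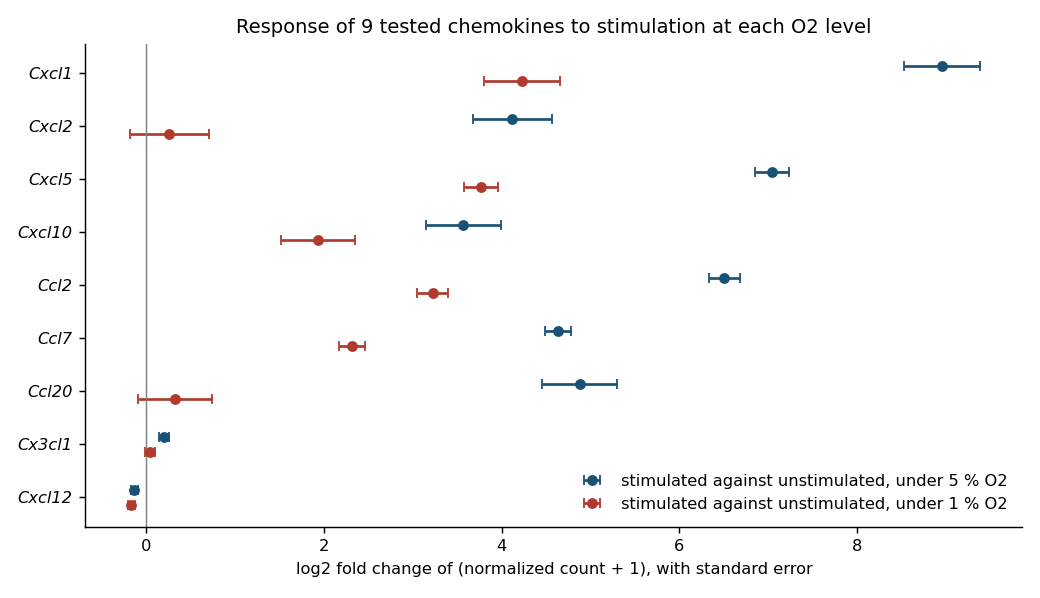
Log2 difference between stimulated and unstimulated libraries (x axis, of normalized count + 1) under 5 % O2 and under 1 % O2 for the 9 chemokines tested. Points are limma estimates and bars their standard errors. The estimates of Cxcl1, 8.95 and 4.23, lie farthest to the right, and those of Cx3cl1 and Cxcl12 lie next to 0.

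Cxcl12 (ENSMUSG00000061353, chromosome 6 from 117168535 to 117181367), which holds and guides Cxcr4-bearing cells, was abundant in unstimulated myotubes and did not join this response. Its normalized counts were 1863, 1930.2 and 1989 (lowest, median and highest) in 5 % CTRL and 2250.5, 2348 and 2555 in 1 % CTRL. They were 1689.9, 1746 and 1917 in 5 % STIM and 1963, 2109.9 and 2207 in 1 % STIM. The libraries under 1 % O2 lay above those under 5 % O2 within each treatment, without overlap. Low oxygen raised it by 0.29 in unstimulated myotubes (SE 0.04, adjusted p = 2.94e-08 from limma) and by 0.25 in stimulated ones (SE 0.04, adjusted p = 4.11e-07 from limma). Stimulation lowered it, by -0.17 under 1 % O2 (SE 0.04, adjusted p = 7.34e-04 from limma) and by -0.13 under 5 % O2 (SE 0.04, adjusted p = 0.00778 from limma). With equal library totals in place of size factors, the latter was -0.10 (adjusted p = 0.0574 from limma). The responses to stimulation differed by -0.04 (SE 0.05, adjusted p = 0.731 from limma).

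Cx3cl1 (ENSMUSG00000031778, chromosome 8 from 94772009 to 94782427), the membrane-bound fractalkine, moved with oxygen in the opposite direction. It had 1609, 1651 and 1855 normalized counts (lowest, median and highest) in 5 % CTRL and 992, 1087 and 1099 in 1 % CTRL. Stimulated libraries had 1719.6, 1868 and 2254 in 5 % STIM and 1040.4, 1059 and 1235 in 1 % STIM. Libraries under 1 % O2 lay below those under 5 % O2 without overlap, and stimulated and unstimulated libraries overlapped at both levels. Low oxygen lowered it by -0.66 in unstimulated myotubes (SE 0.05, adjusted p = 9.38e-12 from limma) and by -0.82 in stimulated ones (SE 0.05, adjusted p = 7.85e-14 from limma). Stimulation raised it by 0.20 under 5 % O2 (SE 0.05, adjusted p = 0.00837 from limma), against 0.04 under 1 % O2 (SE 0.05, adjusted p = 0.697 from limma). These 2 responses differed by -0.16 (SE 0.08, adjusted p = 0.194 from limma).

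**Figure D3:**
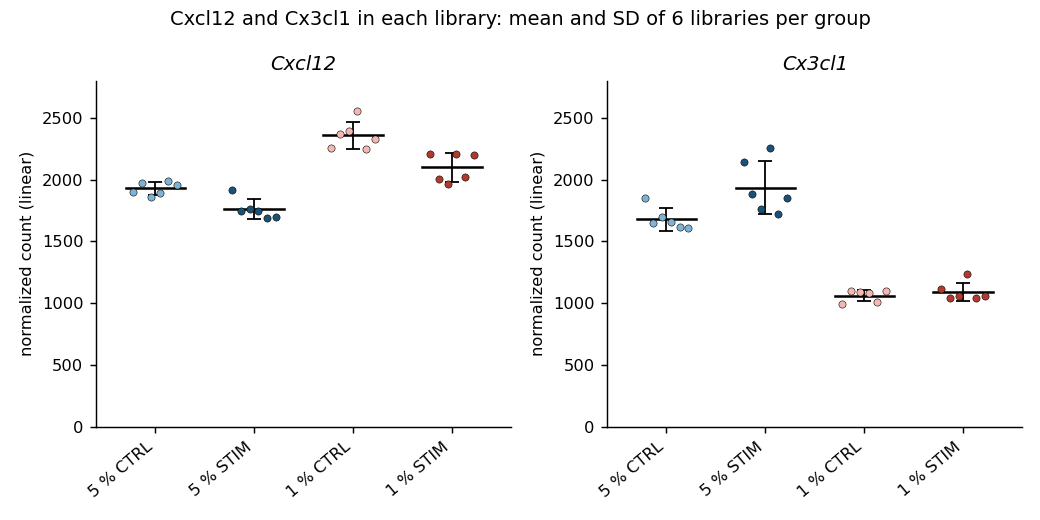
Normalized counts of Cxcl12 and Cx3cl1 in each library on a linear axis from 0, for the 4 groups on the x axis. Points are libraries, horizontal lines are means and bars are SDs of 6 libraries. Cxcl12 is higher and Cx3cl1 lower in both groups under 1 % O2 than in the groups under 5 % O2.

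Low oxygen alone changed 5 of the 9 tested chemokines in unstimulated myotubes, 1 higher and 4 lower, where 59.9 % of tested genes were called, 29.4 % higher and 30.5 % lower. Beside Cxcl12 and Cx3cl1, Ccl2 was lower by -1.10 (SE 0.17, adjusted p = 3.09e-06 from limma), a 2.26-fold lower mean. With limma voom on whole reads the difference was -1.14 and the adjusted p-value was 0.125. Ccl7 was lower by -0.84 (SE 0.14, adjusted p = 6.32e-06 from limma), a 1.79-fold lower mean. Cxcl10 was called lower by -0.97 (SE 0.42, adjusted p = 0.0443 from limma) on 5 reads against 14. That call was lost with a pseudocount of 10 (adjusted p = 0.225), without the filter (0.0652), by edgeR (0.0837) and by DESeq2 (0.0705). It was also lost without 5 % CTRL replicates 3, 4 or 6, 1 % CTRL replicates 1, 2, 5 or 6, or any replicate of 5 % STIM, with adjusted p-values from 0.0504 to 0.132. Cxcl5, at 0.34 (SE 0.19, adjusted p = 0.125 from limma), passed the threshold without 1 % CTRL replicate 4 (0.45, adjusted p = 0.0458). Cxcl1 and Ccl20 did not pass it, and Cxcl2 had no read in either group.

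In stimulated myotubes, Cxcl12 was higher under 1 % O2 than under 5 % O2 and the other 8 tested chemokines were lower, where 57.4 % of tested genes were called, 29.0 % higher and 28.4 % lower. For Cxcl2, Cxcl10 and Ccl20 this direction follows from the filter. The 1 % STIM mean of Ccl2 was 4.75 % of its 5 % STIM mean (log2 difference -4.38, SE 0.17, adjusted p = 1.27e-18 from limma). That of Cxcl1 was 5.17 % (-4.26, SE 0.43, adjusted p = 2.23e-08 from limma). It was 11.3 % for Ccl7 (-3.16, SE 0.14, adjusted p = 7.20e-19 from limma) and 12.9 % for Cxcl5 (-2.93, SE 0.19, adjusted p = 3.78e-14 from limma), and Cxcl10 was 7.12-fold lower (-2.61, SE 0.42, adjusted p = 2.08e-06 from limma). Cxcl1, Cxcl5, Ccl2, Ccl7 and Cx3cl1 did not overlap between the 2 stimulated groups, where 18.7 % of tested genes were lower without overlap. Cxcl2, Cxcl10 and Ccl20 did not overlap either, but for them this separation too follows from the filter. The sum of the myoblast markers also moved with oxygen, from 3247 to 3613 in 5 % CTRL and 3514 to 4098 in 5 % STIM, to 3702 to 5713 in 1 % CTRL and 4002 to 4819 in 1 % STIM. Its members went both ways, with Myf5, Top2a, Pax7 and Hey1 called higher, Id3 and Ccnb1 called lower and Mki67 not called, at either treatment. Top2a, which went from 1264 ± 85.4 to 2130 ± 402 normalized counts (SD, n = 6) between the unstimulated groups, made up most of the rise of the sum. Of the 10 myotube markers, 6 were called lower and 1, Myh1, higher under 1 % O2 in unstimulated as in stimulated myotubes. Among them Myog, which encodes the regulator myogenin, was lower by -0.66 in unstimulated and -0.76 in stimulated myotubes (SE 0.04 each, adjusted p = 5.26e-14 and 1.85e-15 from limma). Stimulation also lowered Myog, by -0.53 under 5 % O2 and by -0.64 under 1 % O2 (SE 0.04 each, adjusted p = 7.19e-11 and 9.04e-13 from limma). With stimulation, 3 of the 10 were called lower under 5 % O2 and 2 under 1 % O2, and none higher. The shares of tested genes called were 21.4 % and 22.3 %, and the medians over the 10 were -0.067 and -0.022. The sum of the 4 fibroblast markers, of which 2 were tested, lay between 1368 and 1585 under 5 % O2 and between 1175 and 1391 under 1 % O2. The part of the myoblast, myotube, fibroblast and leukocyte markers in these results was not tested. Without 1 % CTRL replicate 1, the interaction estimates were -4.72 for Cxcl1, -3.34 for Cxcl5, -3.23 for Ccl2 and -2.26 for Ccl7.

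The order of the group levels separates the chemokines by family only in part. For Cxcl1 and Cxcl5 it was 5 % STIM, 1 % STIM, 1 % CTRL and 5 % CTRL, and the 2 unstimulated groups did not pass the test against each other. For Ccl2 and Ccl7 it was 5 % STIM, 1 % STIM, 5 % CTRL and 1 % CTRL, and each neighbour differed. For Cxcl2 and Ccl20, 5 % STIM came first and no neighbours below it passed the test. For Cxcl10 each neighbour passed it, with adjusted p from limma of 0.0486 for 1 % STIM against 5 % CTRL and 0.0443 for 5 % CTRL against 1 % CTRL. Both of these pairs overlapped, and the latter call was lost under several alternatives, so the order below 5 % STIM is not settled. The first place of 5 % STIM follows from the filter for Cxcl2, Cxcl10 and Ccl20. Cx3cl1 ran from 5 % STIM over 5 % CTRL and 1 % STIM to 1 % CTRL, the last pair without a difference past the threshold. Cxcl12 ran from 1 % CTRL over 1 % STIM and 5 % CTRL to 5 % STIM, and each neighbour differed.

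Levels can be set side by side between genes only per length of exon. The length used was that of all annotated exons of a gene merged, 8176 bases for Cxcl12 and 3930 for Cx3cl1. Which transcripts were expressed was not determined, so the order of these 2 genes rests on this choice. In 5 % CTRL, Cx3cl1 had the highest mean level of the 10 by this measure, 427 normalized counts per kb of exon, followed by Cxcl12 at 236 per kb. Before division by length, Cxcl12 was the higher, at 1930 against 1679 normalized counts. Ccl7 was at 43.7 per kb and Ccl2 at 18.6 per kb, and the other 6 were below 5 per kb. In 5 % STIM, Ccl2 at 1747 per kb and Cxcl1 at 1727 per kb were above Ccl7 at 1122 per kb, Cxcl5 at 552 per kb, Cx3cl1 at 493 per kb and Cxcl12 at 215 per kb. The order changed again in 1 % STIM, where Cx3cl1 (278 per kb) and Cxcl12 (257 per kb) were above Ccl7 (126 per kb), Cxcl1 (89.3 per kb), Ccl2 (83.0 per kb) and Cxcl5 (71.4 per kb).

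One library carried the highest values of the stimulated response. In 5 % STIM, replicate 4 was highest for 8 of the 10 chemokines, the exceptions being Cxcl12 and Ccl8, with a read total of 26811093 that lies inside the range of its group. The lowest log2 response under 5 % O2 among the fits that left out 1 library came without this replicate for Ccl2 (6.41) and Ccl7 (4.57), and that of Cx3cl1 was then 0.15 (adjusted p = 0.0291 from limma). The coefficient of variation of Cxcl1 in 5 % STIM was 23.7 %, where counting alone gives 1.77 %, and that of Ccl2 was 20.5 % against 2.27 %. Cxcl12 in 5 % CTRL varied by 2.62 %, where counting gives 2.31 %. These figures set the spread of separate libraries beside counting error alone.

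Chemokine genes that neighbour the responding ones held few reads, and most were not tested. On chromosome 5, 7 chemokine genes from Cxcl5 to Cxcl2 lie within 147 kb. Between the responding Cxcl5 and Cxcl1 lie Ppbp, which encodes a platelet chemokine, with 5 to 8 reads per group, Pf4, which encodes platelet factor 4, with 2 reads in 5 % STIM and none elsewhere, and Cxcl15, with no read. Cxcl3, a further ELR chemokine, had 18 reads in 5 % STIM, 1 in 1 % STIM and none in the unstimulated groups. On chromosome 11, Ccl11 (eotaxin) lies between Ccl7 and Ccl8 and had 46 reads in 5 % STIM against 9 in 5 % CTRL, 13 in 1 % CTRL and 16 in 1 % STIM, while Ccl12 had none and Ccl1 had 2, both in 5 % STIM. Beside Cxcl10, Cxcl9 had 139 reads in 5 % STIM and 66 in 5 % CTRL, and Cxcl11 had 1 read in all. Beside Cx3cl1, Ccl17 had 49 reads in 5 % STIM and 15 in 5 % CTRL, and Ccl22 had 6 reads in all groups together.

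**Figure D4:**
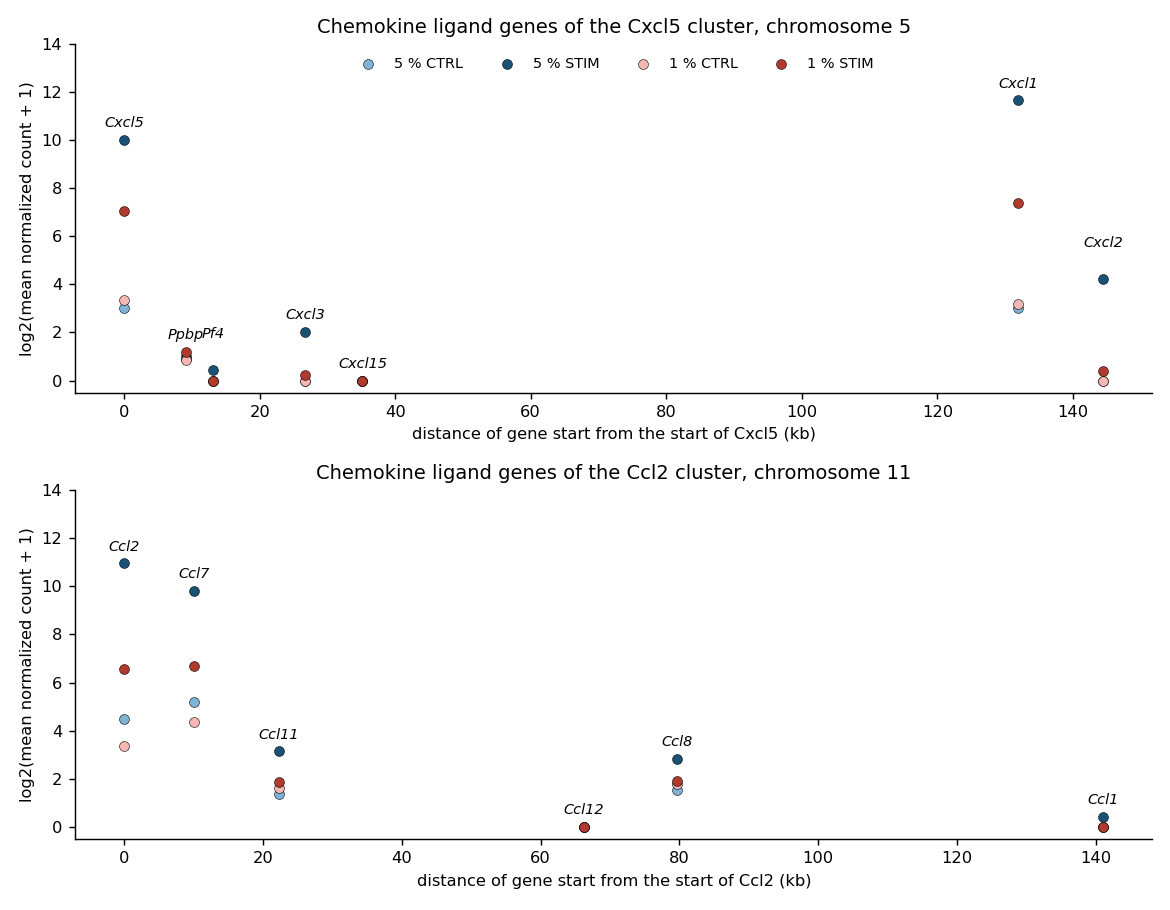
Mean normalized count of each chemokine ligand gene, as log2(mean + 1) on the y axis, against the distance of its start in kb from the first gene of its cluster, for the cluster on chromosome 5 that begins with Cxcl5 and that on chromosome 11 that begins with Ccl2. Points are means of 6 libraries per group. Cxcl5, Cxcl1, Ccl2 and Ccl7 reach the highest 5 % STIM means, and Cxcl15 and Ccl12 are at 0 in each group.

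Of 31 other chemokine ligands, 6 had enough reads to be tested and 9 had no read. Stimulation under 5 % O2 raised 3 of the 6 (9.44 % of tested genes were called higher), with a median log2 difference of 0.30 over the 6 against -0.01 over the genes tested. Cxcl16, a membrane-bound ligand like Cx3cl1, went from 21.1 ± 3.74 to 71.4 ± 7.27 normalized counts (SD, n = 6), a log2 difference of 1.72 (SE 0.16, adjusted p = 3.35e-10 from limma). Cxcl9, an interferon-inducible partner of Cxcl10, rose by 0.99 (SE 0.27, adjusted p = 0.00698 from limma), and Ccl9 by 0.50 (SE 0.17, adjusted p = 0.0320 from limma). Each 5 % STIM library held 15.3 or more normalized counts of Cxcl9, and 1 % CTRL libraries held at most 8.57. Cxcl9 passed the minimum through 5 % STIM alone, so that it had to differ between groups. The 3 of 6 are therefore not read against the share of tested genes. Under 1 % O2 none of the 6 was called higher and Cxcl14 fell by 0.33 (adjusted p = 0.0331 from limma). The response of Cxcl16 differed between oxygen levels by -1.39 (SE 0.23, adjusted p = 6.15e-05 from limma) and that of Ccl9 by -0.72 (SE 0.24, adjusted p = 0.0488 from limma). Low oxygen lowered 4 of the 6 in unstimulated myotubes (Cxcl9, Ccl9 and Cxcl13 most) and 5 in stimulated ones, where 30.5 % and 28.4 % of tested genes were called lower. For Cxcl9 the direction in stimulated myotubes follows from the filter. The medians over the 6 were -0.36 and -0.86, against 0.0015 and -0.00083 over the genes tested.

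Of 24 chemokine receptors, 6 were tested and 8 had no read. Cxcr4, the receptor of Cxcl12, rose with stimulation from 713 ± 27.1 to 914 ± 117 normalized counts (SD, n = 6) under 5 % O2, a log2 difference of 0.35 (SE 0.06, adjusted p = 7.23e-05 from limma), and by 0.32 (SE 0.06, adjusted p = 1.97e-04 from limma) under 1 % O2. Ackr3, the other receptor of Cxcl12, fell with stimulation under 1 % O2 by 0.22 (SE 0.07, adjusted p = 0.0116 from limma) and differed in its response between oxygen levels by -0.30 (SE 0.09, adjusted p = 0.0281 from limma). Low oxygen lowered 3 of the 6 and raised 1 in unstimulated as in stimulated myotubes, where 59.9 % and 57.4 % of tested genes were called. It lowered Ackr3, Cxcr6 (the receptor of Cxcl16) and Xcr1 and raised Ccr10. Xcr1 had the widest difference of these, -1.31 in unstimulated myotubes (SE 0.30, adjusted p = 3.08e-04 from limma). Cxcr2, the receptor of the ELR chemokines, had 1 read in the 24 libraries, and Ccr2, that of Ccl2 and Ccl7, had none.

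Across the 24 libraries, the profiles most like that of Cxcl1 were those of Trib3 (Pearson r = 0.961), Insig1 (0.960) and Nfkbia (0.960), the last of which encodes an inhibitor of NF-κB. For Ccl2 they were Insig1 (0.986), Tlr2 (0.972) and Gm7967 (0.964), and for Cxcl12 they were Alg9 (0.941), Vgll4 (0.936) and Thnsl1 (0.935). These correlations are of log2 values, and only genes that averaged 100 or more in their highest group were considered. They are descriptions of libraries that share the 4 groups, so differences between groups make up much of them. Within the 9 tested chemokines, Ccl2 and Ccl7 were most alike (0.991) and Cxcl12 and Cx3cl1 least (-0.801).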

How the data were processed

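Bulk RNA of C2C12 myotubes was measured in 4 groups of 6 libraries, grouped by their labels. The authors made stranded mRNA libraries and, per the submitters' processing notes, used FastQC 0.11.7, STAR 2.5.4b, RSEM 1.3.0 and the GRCm38 genome. The deposited expression signal is the gene count divided by the DESeq2 size factor, so depth is corrected in it. A second deposited table with the authors' own log2 fold changes, p-values and calls was not used. Reads were recovered from the smallest step between values, and 100 % of values came out whole within 0.01.

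The 14541 genes that reached a normalized count of 10 in 6 or more libraries entered 1 limma 3.58.1 fit of log2(normalized count + 1), with trend and robust eBayes, no block, and calls at a Benjamini-Hochberg adjusted p under 0.05. The interaction is the response under 1 % O2 minus that under 5 % O2. Ccl8 was compared by exact permutation. Code was tested on simulated data. Alternatives were no filter, a pseudocount of 10, equal library totals, a replicate block, an adjusted p under 0.01, edgeR 4.0.16, DESeq2 1.42.0, limma voom, and leaving out each library. The members and gene lists were chosen with earlier results of these data known. Named genes were the members, called genes of 2 further lists (up to 3 a comparison), chemokine ligands within 1 Mb of a member and the 3 most correlated genes for 3 members. Cxcr2, Ccr2, Myog and Top2a were named after their values were seen. Names and lengths came from the GRCm38 annotation, and counting intervals cover 95 %.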

Additional observations from a re-analysis of the deposited data

Results flagged for a closer look

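Single libraries lay far from the other 5 of their group, by the Dixon test at its 95 % level, in 8 of the 37 groups of values with any spread. They were Cxcl1 in 5 % STIM replicate 4 (4673 normalized counts), Cxcl12 in 5 % STIM replicate 1 (1917), Cx3cl1 in 5 % CTRL replicate 1 (1855) and Cx3cl1 in 1 % STIM replicate 4 (1235). The other 4 rested on 1 to 6 reads, namely Cxcl2 in 1 % STIM replicate 3 (1.93), Cxcl10 in 1 % CTRL replicate 3 (3.81), Ccl8 in 5 % CTRL replicate 4 (6.14) and Ccl20 in 5 % CTRL replicate 1 (1.04). In each case it was the highest library of its group.

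The response to stimulation differed between oxygen levels in limma for Cxcl1 (-4.72 on the log2 scale), Cxcl5 (-3.28), Ccl2 (-3.28) and Ccl7 (-2.32), in each case with the smaller response under 1 % O2. Cxcl2 (-3.86) and Ccl20 (-4.55) were called in the same direction. Both entered the test through 5 % STIM alone, so that they had to differ between groups, and edgeR on whole reads called neither.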

How the results depend on the processing

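Counts of chemokines called stayed within 1.5 times the reported ones under each alternative, the lowest for the interaction being 4 with edgeR. An adjusted p under 0.01 moved the number of genes called from 3115 to 1944 for stimulation under 5 % O2 and from 1645 to 830 for the interaction. Leaving out 1 library gave 9 to 9 chemokines called for stimulation under 5 % O2, 6 to 6 under 1 % O2, 4 to 6 for oxygen in unstimulated and 9 to 9 in stimulated myotubes, and 6 to 7 for the interaction, with 2666 to 3469, 2893 to 3748, 8378 to 8955, 8075 to 8576 and 1343 to 2316 genes called. In these fits the filter was set on all 24 libraries, so Cxcl2, Cxcl10 and Ccl20, which passed it through 5 % STIM alone, stayed in each. The difference of Cxcl1 between unstimulated groups ran from -0.068 without 5 % CTRL replicate 3, where it turned, to 0.684 without 5 % CTRL replicate 6. With libraries rescaled to the same total, 62.1 % of calls were higher for stimulation under 5 % O2 (44.0 % as reported), 62.4 % under 1 % O2 (51.4 %), 62.7 % for oxygen in unstimulated (49.0 %) and 63.2 % in stimulated myotubes (50.4 %), and the median of all genes for oxygen rose by less than 0.1. With the replicate block, 3190 genes were called for stimulation under 5 % O2 and 1710 for the interaction, and no call of a chemokine changed. The labels do not say that libraries with the same replicate number belong together. After group means were removed, same-numbered libraries correlated from -0.148 to 0.155 and differently numbered ones from -0.244 to 0.343. In 16 of 72 comparisons the own number was highest. These correlations cannot exclude a pairing. Cxcl2, Cxcl10, Ccl8 and Ccl20 rest on few reads, which limits what their responses under 1 % O2 can show.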
